A study of Homo sapiens with 7 samples.

Results

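The miR-181 family was followed in HepG2, an established human hepatocellular carcinoma line, while the transcription factor TEAD1 was silenced. Its members were taken by name: hsa-miR-181a-5p, hsa-miR-181b-5p, hsa-miR-181c-5p, hsa-miR-181d-5p, hsa-miR-181a-3p and hsa-miR-181a-2-3p (hsa, for human, is left off from here on), which are 6 of the 2652 mature miRNAs counted in each library. The samples were cells labelled TEAD1 knockdown, treated for 24, 36 or 48 h with siRNA 2 or with siRNA 1 (1 library for each siRNA and time), and untreated cells labelled WT (0 h, 1 library). All 7 libraries were small RNA libraries made by adapter ligation from total RNA. The libraries of each time had different siRNAs, so the spread within a time also holds any difference between siRNA 2 and siRNA 1. The labels do not say whether the libraries were separate cultures. Each p-value thus refers to library-to-library spread alone, and what the siRNAs do not account for in it is possibly technical. No library of cells given a control siRNA was analysed here, so loss of TEAD1 cannot be told apart from transfection or from time in culture. These small RNA libraries do not measure TEAD1 mRNA or protein, so its knockdown was not checked here.

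A miRNA hairpin is cut by Dicer into a duplex, of which 1 strand (the guide) is mostly kept in Argonaute and pairs with mRNAs through its seed, while the other strand (the passenger) is mostly degraded. In the miR-181 family the 5p strands are the main guides. The family is best known for setting the sensitivity of T cell receptor signalling during thymocyte development. In liver cancer it has been linked to EpCAM-positive, progenitor-like tumour cells, with CDX2, GATA6 and NLK among the reported targets. TEAD1 binds DNA and carries the output of the Hippo pathway together with YAP and TAZ.

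The guide strands carry the same seed (bases 2 to 8, in capitals) and differ outside it, as these RefSeq sequences (GRCh38.p14) show, 5′ to 3′.
miR-181a-5p: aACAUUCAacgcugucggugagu
miR-181b-5p: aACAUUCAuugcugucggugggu
miR-181c-5p: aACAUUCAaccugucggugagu
miR-181d-5p: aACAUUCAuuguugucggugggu
Positions are counted from 1 at the 5′ end. miR-181b-5p and miR-181d-5p differ by the single substitution C12U, so counting that tolerates 1 mismatch could exchange their reads. miR-181a-5p and miR-181b-5p differ by A9U, C10U and A21G. miR-181a-5p and miR-181c-5p lie 1 edit apart, a base that is missing from miR-181c-5p. How mismatches were handled is not given in the sources used here. One other miRNA, miR-4262, shares the seed, and it had 0 reads in all 7 libraries.

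The 2 hairpins that make miR-181a-5p release different 3p strands, so reads of those strands belong to 1 locus each. The hairpins are shown because the levels of miR-181a-2-3p rest on this difference. The capitals mark the mature arms.
MIR181A1: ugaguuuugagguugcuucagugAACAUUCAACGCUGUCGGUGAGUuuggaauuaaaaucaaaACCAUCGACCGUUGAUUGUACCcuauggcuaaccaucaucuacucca
MIR181A2: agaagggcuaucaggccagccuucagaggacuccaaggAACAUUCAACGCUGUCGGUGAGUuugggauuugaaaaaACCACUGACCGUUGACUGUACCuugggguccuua
MIR181A1 occupies chr1:198859044-198859153 on the minus strand and MIR181A2 chr9:124692442-124692551 on the plus strand of GRCh38. The 3p strands have different seeds, in capitals here, and the substitutions U5C, C6U and U16C separate them.
miR-181a-3p: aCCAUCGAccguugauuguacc
miR-181a-2-3p: aCCACUGAccguugacuguacc

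The mature miR-181a-5p is encoded at chr1:198859108-198859130 and again at chr9:124692480-124692502. Per GENCODE 29, the chromosome 1 copy lies in an intron of the long non-coding RNA MIR181A1HG. The chromosome 9 copy lies in an intron of MIR181A2HG, which runs antisense inside an intron of NR6A1. miR-181a-3p comes from chr1:198859069-198859090 and miR-181a-2-3p from chr9:124692518-124692539. miR-181b-5p is encoded beside each copy, at chr1:198858925-198858947 and chr9:124693725-124693747. The 5p strands of the pair start 183 bases apart on chromosome 1 and 1245 bases apart on chromosome 9. miR-181c-5p (chr19:13874725-13874746) and miR-181d-5p (chr19:13874910-13874932) form the third pair, 185 bases apart, in an intron of NANOS3, a germ cell RNA-binding protein gene. Reads of miR-181a-5p and miR-181b-5p therefore pool both loci, whereas miR-181a-3p and miR-181a-2-3p each report 1 locus. The 300-base promoter window of MIR181A1HG in RefSeq held 0 matches to the TEAD motif GGAATG on either strand (CATTCC on the other), letters that 14.03% of 35116 promoter windows hold. A lack of these letters says nothing about TEAD1 binding elsewhere. No match count was taken for the promoters of MIR181A2HG and NANOS3.

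Depth was 13134601 to 15591345 reads a library, and miRNAs took 1920832 to 6171851 of them. The miRNA share was 13.4% to 26.5% in the siRNA-treated libraries and 43.1% in the untreated one. Levels are counts scaled by edgeR's TMM-adjusted library size (CPM), and each read is 1 molecule end to end, so miRNAs are compared without division by length. The 95% intervals are exact Clopper-Pearson intervals, which cover counting error only. The libraries of the 36 h pair stood furthest apart: the log2 difference of siRNA 2 from siRNA 1 had an SD over 458 miRNAs of 0.58 at 24 h, 1.19 at 36 h and 0.49 at 48 h. Among marker miRNAs, the hepatocyte list summed to 16102 to 27464 CPM in siRNA-treated libraries and 21012 CPM in untreated cells, with miR-885-5p at 0 in all 7. miR-148a-3p carried most of that sum. miR-122-5p, the most liver-specific marker, had 45.5 CPM in untreated cells, 4.60, 6.60 and 3.75 CPM over 24, 36 and 48 h of siRNA 2, and 32.2, 47.6 and 4.37 CPM over those of siRNA 1 (log2 fold change at 48 h -3.47 ± 1.29, SE, edgeR adjusted p = 0.367). The list did not move together: at 48 h against untreated, 2 of its 4 tested miRNAs lay above 0 and 2 below, with a median log2 fold change of 0.0065. miR-192-5p had 2917 CPM at 48 h of siRNA 2 and 3064 CPM at 48 h of siRNA 1, against 2479 CPM in untreated cells. For blood and lymphoid cells, known for high miR-181, the sum was 16.3 to 80.0 CPM against 15.8 CPM in untreated cells, with miR-223-3p at 0 in all 7. miR-451a carried most of that sum, with 73.0 CPM at 36 h of siRNA 2. miR-142-3p and miR-150-5p had at most 10 and 3 reads in a library. The fibroblast and endothelial list summed to 458 CPM in untreated cells, 505, 1067 and 836 CPM over 24, 36 and 48 h of siRNA 2, and 442, 1065 and 839 CPM over those of siRNA 1. miR-143-3p and miR-126-3p carried most of that sum. At 36 h miR-143-3p had 707 CPM with siRNA 2 and 745 CPM with siRNA 1, against 159 CPM in untreated cells. miR-145-5p, miR-199a-3p and miR-199a-5p had at most 25, 22 and 22 reads in a library. Neuronal markers summed to 40.0 to 51.8 CPM against 34.3 CPM in untreated cells. Muscle markers summed to 876 CPM in the library of siRNA 1 at 36 h. The other siRNA libraries had 21.0 to 52.8 CPM of them and untreated cells 23.1 CPM. In the library of siRNA 1 at 36 h, miR-1-3p alone had 867 CPM, against 2.53 CPM for miR-133a-3p and 6.58 CPM for miR-206.

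The total of the family differed little between siRNA-treated and untreated cells. Over all 10 miR-181 strands in the files it summed to 2814 ± 307 CPM in siRNA-treated libraries (SD, n = 6) and 2691 CPM in untreated cells, a difference smaller than that SD. It made up 0.199% to 0.331% of miRNA reads after siRNA treatment, against 0.234% in untreated cells. As a share of all reads, miRNA or not, the family stood at 0.0359% to 0.0772% in the siRNA-treated libraries and 0.101% in the untreated one, where the miRNA share itself was also higher. In bulk RNA, fewer cells with a miRNA and fewer copies per cell cannot be told apart. Guide strands supplied 80.2% to 90.5% of miR-181 reads after siRNA treatment and 81.9% in untreated cells. Of the 6 members, 5 passed the count minimum of a mean of 10 reads, and miR-181c-5p did not.

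miR-181a-5p, the leading guide, ranked 60 among 458 tested miRNAs. It measured 1023 CPM in untreated cells, and 935, 1070.4 and 1239 CPM at 24, 36 and 48 h of siRNA 2. With siRNA 1 it measured 1366, 1406 and 1105 CPM at the same times. The highest of the 7 values was 1.5 times the lowest, and the untreated value lay inside the range of the siRNA-treated ones. The siRNA-treated mean was 1187 ± 182 CPM (SD, n = 6), against 1023 CPM in untreated cells. miR-181b-5p, its cluster partner, stood at 960.5 CPM in untreated cells, at 917, 954 and 979.9 CPM over the times of siRNA 2, and at 1215, 1151 and 983 CPM over those of siRNA 1. It was the steadiest member: its SD of log2 CPM over the 7 libraries was 0.15, against a median of 0.45 over all tested miRNAs. Its highest library was 1.32 times its lowest. The SDs of miR-181a-5p and miR-181b-5p log2 CPM were smaller than those of most tested miRNAs, with 11.1% and 4.15% of them smaller still. Those miRNAs were not matched for level, and many had fewer reads and so more counting error.

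miR-181d-5p, the guide of the chromosome 19 cluster with the miR-181b-like sequence, measured 218 CPM in untreated cells (95% interval 206 to 231). It measured 159, 123 and 125 CPM at 24, 36 and 48 h of siRNA 2, and 215, 181 and 139 CPM at those times of siRNA 1. All 6 siRNA-treated values lay below the untreated one, but that of siRNA 1 at 24 h did so by less than its interval (200.05 to 232). Lying below untreated in all 6 libraries was shared by 13.5% of the 458 tested miRNAs. The siRNA-treated mean was 157 ± 36.0 CPM (SD, n = 6), against 218 CPM in untreated cells. At each time miR-181d-5p was lower with siRNA 2 than with siRNA 1.

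miR-181c-5p was barely detected, with 16 reads in untreated cells, 9, 1 and 4 reads over 24, 36 and 48 h of siRNA 2 and 9, 6 and 3 reads over those of siRNA 1. That is 2.98 CPM in untreated cells and 0.413 to 3.76 CPM after siRNA treatment, where 3 reads give 0.559 CPM in the untreated library and 0.886 to 1.52 CPM in the others. The untreated interval (1.70 to 4.84 CPM) overlapped that of each siRNA-treated library. Overlap does not show that its level stayed the same, and the count minimum left miR-181c-5p out of the main edgeR fits. Its hairpin partner miR-181c-3p exceeded it in all 7 libraries, with 5.83 to 32 reads for each miR-181c-5p read after siRNA treatment and 8.25 in untreated cells. The 5p reads of miR-181a, miR-181b and miR-181d outnumbered their 3p reads in every library.

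miR-181a-3p, the passenger strand of the chromosome 1 hairpin, measured 112 CPM in untreated cells, 107, 119.6 and 138.5 CPM over 24, 36 and 48 h of siRNA 2, and 169.9, 115 and 145 CPM over those of siRNA 1. Its mean was 133 ± 23.2 CPM after siRNA treatment (SD, n = 6), against 112 CPM in untreated cells, and the untreated value lay inside the siRNA-treated range. miR-181a-2-3p, the passenger strand of the chromosome 9 hairpin, varied most of the 5 tested members. It measured 337 CPM in untreated cells (322 to 353), 180.2, 347 and 380.5 CPM over 24, 36 and 48 h of siRNA 2, and 206, 141 and 379 CPM over those of siRNA 1. Both 24 h libraries were low, both 48 h libraries were high, and the 36 h libraries split, with siRNA 2 at the level of 48 h and siRNA 1 below that of 24 h. Its highest library was 2.70 times its lowest, and its SD of log2 CPM was 0.59.

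**Figure D1:**
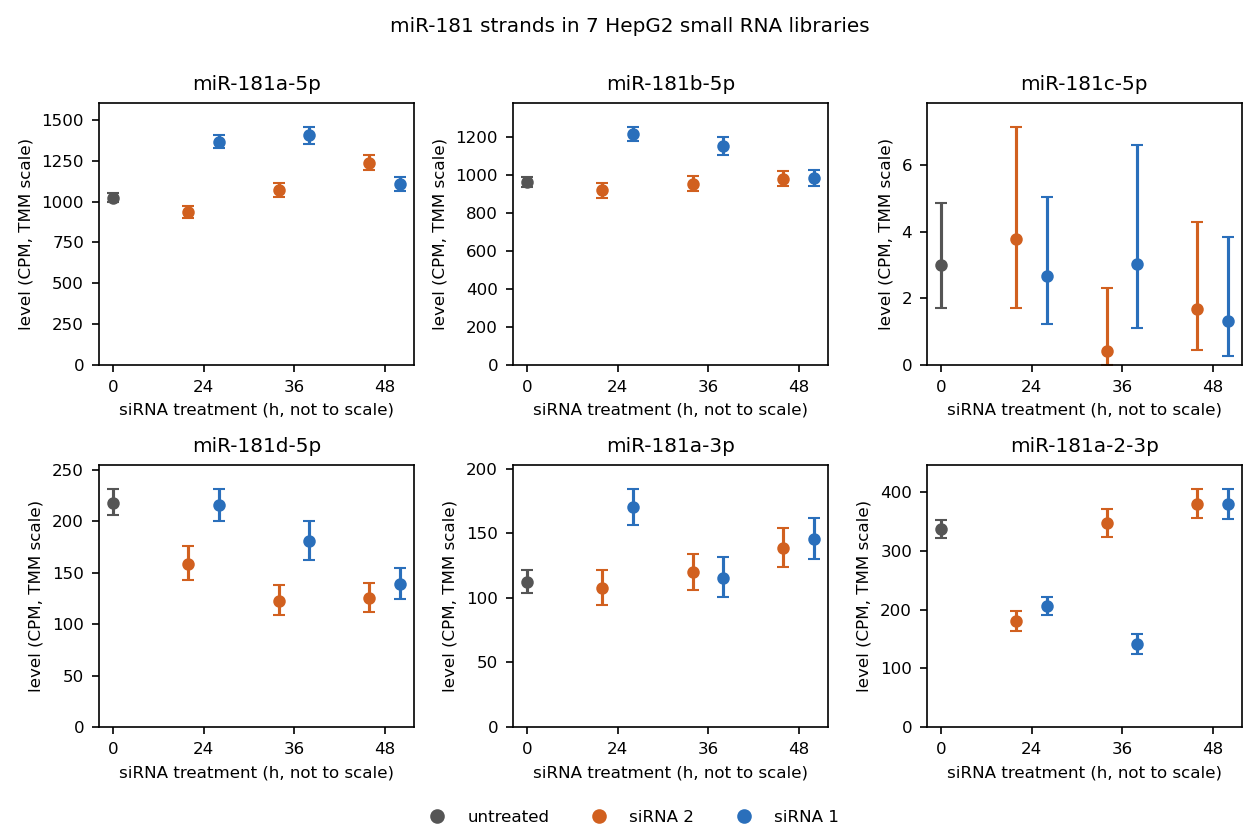
Level of each of the 6 miR-181 members (CPM on the TMM scale, vertical axes from 0) in untreated cells (grey, 0 h) and after siRNA 2 (orange) or siRNA 1 (blue) at 24, 36 and 48 h, 1 point per library with its 95% exact counting interval. miR-181a-5p and miR-181b-5p stayed within 1.5-fold and 1.32-fold between their highest and lowest libraries, while miR-181a-2-3p had 380.5 and 379 CPM in the 48 h libraries, against 180.2 and 206 CPM in those of 24 h.

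By level the order in every library was miR-181a-5p, then miR-181b-5p, with miR-181c-5p last. The leading pair was close: the reads of miR-181b-5p for each read of miR-181a-5p numbered 0.791 to 0.981 after siRNA treatment and 0.938 in untreated cells. The places between were held by miR-181a-2-3p, miR-181d-5p and miR-181a-3p, whose intervals overlapped in some libraries. miR-181a-2-3p (206 CPM) and miR-181d-5p (215 CPM) could not be separated at 24 h of siRNA 1, where the intervals were 191 to 222 and 200.05 to 232 CPM. miR-181d-5p and miR-181a-3p overlapped at 48 h, with 125 and 138.5 CPM for siRNA 2 and 139 and 145 CPM for siRNA 1.

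Silencing TEAD1 was compared with no treatment over all 3 times, in an edgeR quasi-likelihood fit of all 458 tested miRNAs. No member passed the adjusted p threshold of 0.05, and the background was the same, with 0% of tested miRNAs called. At an unadjusted p under 0.05 edgeR gave 23 miRNAs and none of the members. After adjustment DESeq2 called 1 miRNA (0.218%) and limma-voom 0, with no member called by either. The log2 fold change of siRNA-treated over untreated cells was 0.21 ± 0.32 (SE) for miR-181a-5p, 0.10 ± 0.29 for miR-181b-5p and 0.24 ± 0.35 for miR-181a-3p (edgeR adjusted p = 0.900, 0.917 and 0.900). It was -0.49 ± 0.33 for miR-181d-5p and -0.37 ± 0.45 for miR-181a-2-3p (edgeR adjusted p = 0.900 for both). The 95% intervals of these log2 values ran from -0.55 to 0.97 for miR-181a-5p, -0.57 to 0.78 for miR-181b-5p and -1.28 to 0.30 for miR-181d-5p. The median log2 fold change was 0.10 over the 5 tested members and -0.05 over all tested miRNAs.

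Time by time, 0% of miRNAs and no member were called by edgeR at 24 h, 36 h or 48 h against untreated. At 24 h, members lay between -0.80 ± 0.51 (miR-181a-2-3p) and 0.30 ± 0.39 (miR-181a-3p) in log2 fold change (SE, edgeR adjusted p = 0.997 for each). At 36 h they lay between -0.52 ± 0.39 (miR-181d-5p) and 0.27 ± 0.36 (miR-181a-5p, edgeR adjusted p = 0.946 for both). At 48 h miR-181d-5p was at -0.72 ± 0.38 (edgeR adjusted p = 0.380) and miR-181a-3p at 0.34 ± 0.39 (0.693). miR-181a-5p was at 0.20 ± 0.36 and miR-181b-5p at 0.03 ± 0.32 at 48 h (edgeR adjusted p = 0.811 and 0.969). miR-181a-2-3p was at -0.46 ± 0.51 at 36 h, a value that 1 library decided. Without siRNA 2 at 36 h it was -1.26 ± 0.35 and was called (edgeR adjusted p = 0.0201, in a fit that called 3.03% of miRNAs, 1.3% lower), and without siRNA 1 at 36 h it was 0.08 ± 0.32 (edgeR adjusted p = 0.895). Each of these fits sets 1 library at 36 h against the 1 untreated library, with the spread taken from the 24 h and 48 h pairs alone, so neither p rests on replicates of the groups compared. Unadjusted p-values under 0.05 numbered 11 at 24 h, 19 at 36 h and 53 at 48 h in edgeR. After adjustment DESeq2 called 1, 7 and 12 miRNAs (0.218%, 1.53% and 2.62%) and limma-voom 0 at each time. These comparisons share the untreated library.

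The scale mattered for the guides. When counts were scaled to all reads of a library in place of miRNA reads, the median log2 fold change of all tested miRNAs over the 3 times moved to -1.13. On that scale miR-181d-5p was at -1.58 ± 0.54 (edgeR adjusted p = 0.0314) over all times, with 26.2% of miRNAs called and 25.5% called lower. At 48 h it was at -1.84 ± 0.66 (edgeR adjusted p = 0.0399), with 25.8% called and 25.1% called lower. miR-181a-5p and miR-181b-5p, above 0 on the TMM scale, were then at -0.86 ± 0.55 and -0.97 ± 0.54 (edgeR adjusted p = 0.180 and 0.137). This scale moved each of these guides about as far as the median of all tested miRNAs, so it does not test their order.

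The longest and the shortest treatment were compared within the siRNA-treated cells, 48 h over 24 h. edgeR again called 0% of the 458 miRNAs and no member, with 84 miRNAs at an unadjusted p under 0.05. After adjustment DESeq2 called 23 (5.02%) and limma-voom 0. miR-181a-2-3p averaged 379.96 CPM in the 48 h pair and 193 CPM in the 24 h pair. Its log2 fold change was 0.98 ± 0.43 (SE, edgeR adjusted p = 0.278, 95% interval -0.05 to 2.00). Both 48 h values exceeded both 24 h values, which was also true of 28.2% of tested miRNAs. The fibroblast and endothelial markers separated these pairs too, summing to 836 and 839 CPM in the 48 h pair and to 505 and 442 CPM in the 24 h pair. Most of these sums came from miR-143-3p and miR-126-3p. The part of these markers in the result was not tested. The 4 other tested members lay between -0.50 ± 0.32 (miR-181d-5p, edgeR adjusted p = 0.412) and 0.03 ± 0.32 (miR-181a-3p, edgeR adjusted p = 0.968). The call of miR-181a-2-3p depended on the 36 h libraries, which add their spread to the fit. Without both 36 h libraries it was at 0.96 ± 0.24 and was called (edgeR adjusted p = 0.000604), in a fit that called 28.7% of 467 miRNAs, 10.9% higher. It was also called without siRNA 2 at 36 h alone (0.98 ± 0.24, edgeR adjusted p = 0.00052, 28.4% called) and without siRNA 1 at 36 h alone (0.998 ± 0.23, edgeR adjusted p = 0.00187, 26.6% called). With both left out and all reads as the scale it was at 0.77 ± 0.46 and not called (edgeR adjusted p = 0.333, 12.6% called).

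miR-181b-3p, the passenger strand of the chromosome 1 miR-181b hairpin and no member of the list, had the opposite order of times at a low level. It had 48 reads in untreated cells, 25, 7 and 7 reads at 24, 36 and 48 h of siRNA 2, and 42, 22 and 10 reads at those times of siRNA 1. In CPM that was 8.95 in untreated cells, 10.5, 2.89 and 2.92 with siRNA 2, and 12.4, 11.1 and 4.37 with siRNA 1. Both 48 h values lay below both 24 h values, as did 33% of tested miRNAs, and at 36 h siRNA 2 was again near 48 h and siRNA 1 near 24 h. The log2 fold change of 48 h over 24 h was -1.64 ± 0.70 (SE, edgeR adjusted p = 0.272), and -1.66 ± 0.54 without the 36 h libraries (edgeR adjusted p = 0.0100, 17.8% called lower). miR-181c-3p measured 13.2 to 23.0 CPM after siRNA treatment and 24.6 CPM in untreated cells, below untreated in 6 of 6 libraries, with a log2 fold change of -0.35 ± 0.38 over all times (SE, edgeR adjusted p = 0.900). Lying below untreated in all 6 libraries was shared by 13.5% of tested miRNAs. The untreated interval (20.6 to 29.2 CPM) held both 24 h values and that of siRNA 2 at 48 h. miR-181b-2-3p had 3 to 11 reads after siRNA treatment and 12 in untreated cells, and miR-181d-3p had 0 reads after siRNA treatment and 1 in untreated cells.

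Ratios of reads within a library need no scale between libraries. For each miR-181a-3p read (chromosome 1) there were 3.0 miR-181a-2-3p reads (chromosome 9) in untreated cells (95% interval 2.74 to 3.3). The ratio was 1.68, 2.90 and 2.75 at 24, 36 and 48 h of siRNA 2, and 1.21, 1.22 and 2.61 at those times of siRNA 1. The siRNA-treated mean was 2.06 ± 0.781 (SD, n = 6), against 3.0 in untreated cells, and 3 of the 6 values were close to the untreated one, with overlapping intervals. The difference was not past an exact two-sided permutation test (p = 0.429, smallest possible 0.143). Between 48 h and 24 h the geometric means differed 1.88-fold without overlap (exact two-sided permutation p = 0.333, the smallest that 2 against 2 allows). By level, 28.2% of tested miRNAs, miR-181a-2-3p among them, had both 48 h values above both 24 h values.

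The other ratio compared the guides that differ by C12U. For each miR-181b-5p read there were 0.227 miR-181d-5p reads in untreated cells (95% interval 0.213 to 0.242). The ratio was 0.173, 0.129 and 0.128 at 24, 36 and 48 h of siRNA 2, and 0.177, 0.157 and 0.141 at those times of siRNA 1. All 6 siRNA-treated intervals, which cover counting error only, lay below the untreated interval. How many other read ratios do so was not counted. By level, 13.5% of tested miRNAs, miR-181d-5p among them, lay below untreated in all 6 libraries. The mean ratio was 0.151 ± 0.0216 after siRNA treatment (SD, n = 6), against 0.227 in untreated cells. The exact two-sided permutation test gave p = 0.143, the smallest that 6 libraries against 1 allow, so this design cannot reach 0.05. At 48 h the geometric mean ratio was 0.766 times that at 24 h, with no overlap between the pairs (exact two-sided permutation p = 0.333). By level, 33% of tested miRNAs, miR-181d-5p among them, had both 48 h values below both 24 h values. In shares of the 4 guide strands, miR-181d-5p held 5.34% to 7.88% after siRNA treatment and 9.89% in untreated cells (9.36% to 10.4%). miR-181a-5p held 46.4% to 52.8% against 46.4% in untreated cells, and miR-181b-5p held 41.8% to 45.5% against 43.6%.

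**Figure D2:**
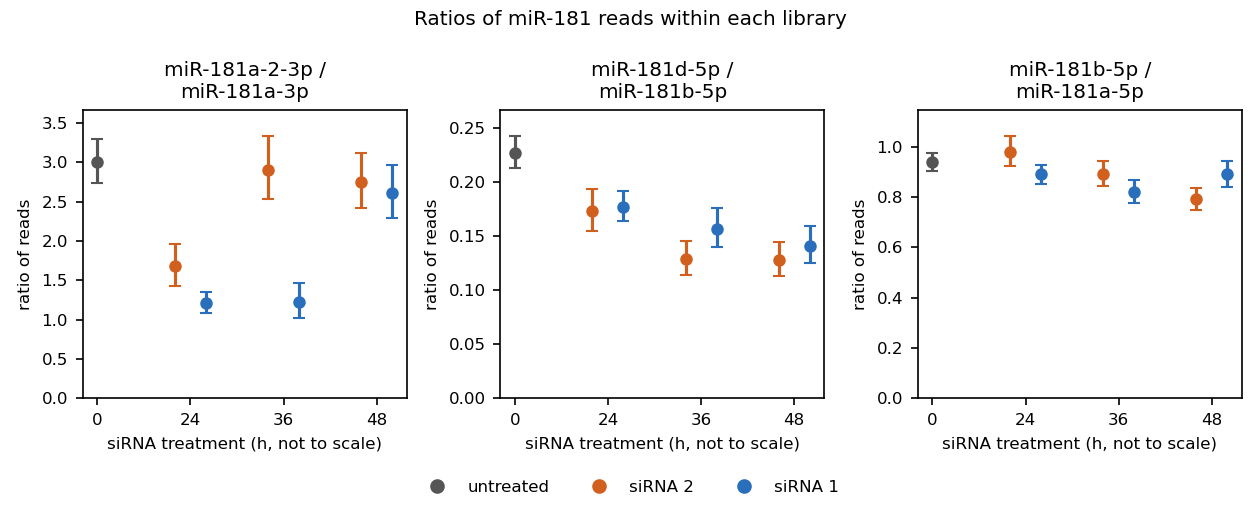
Reads of one miR-181 strand for each read of another within a library (vertical axes from 0), for untreated cells (grey, 0 h), siRNA 2 (orange) and siRNA 1 (blue) at 24, 36 and 48 h, with 95% exact intervals for counting error. The ratio of miR-181d-5p to miR-181b-5p lay at 0.128 to 0.177 in the 6 siRNA-treated libraries, all below 0.227 in untreated cells, while the ratio of miR-181a-2-3p to miR-181a-3p ranged between 1.21 and 2.90.

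The 2 siRNAs were compared within times over 435 tested miRNAs. edgeR called 0% of them and no member, with 6 at an unadjusted p under 0.05, and DESeq2 and limma-voom called 0 after adjustment. miR-181b-5p and miR-181d-5p were lower with siRNA 2 than with siRNA 1 at 3 of 3 times, miR-181a-5p and miR-181a-3p at 2 of 3 and miR-181a-2-3p at 1 of 3. Being lower at all 3 times was shared by 10.8% of tested miRNAs, and for miR-181b-5p the 48 h values, 979.9 CPM with siRNA 2 and 983 CPM with siRNA 1, were within counting error of each other. The log2 fold change of siRNA 2 over siRNA 1 was -0.20 ± 0.23 (SE) for miR-181b-5p and -0.35 ± 0.27 for miR-181d-5p, with 95% intervals of -0.75 to 0.36 and -0.99 to 0.29 (edgeR adjusted p = 0.992 for both). It was 0.39 ± 0.36 for miR-181a-2-3p (edgeR adjusted p = 0.992), and at -0.05 without siRNA 1 at 36 h and -0.02 without siRNA 2 at 36 h. Among the 5 tested members, the largest fold gap between siRNAs at 1 time was that of miR-181a-2-3p at 36 h, with 347 CPM for siRNA 2 and 141 CPM for siRNA 1.

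**Figure D3:**
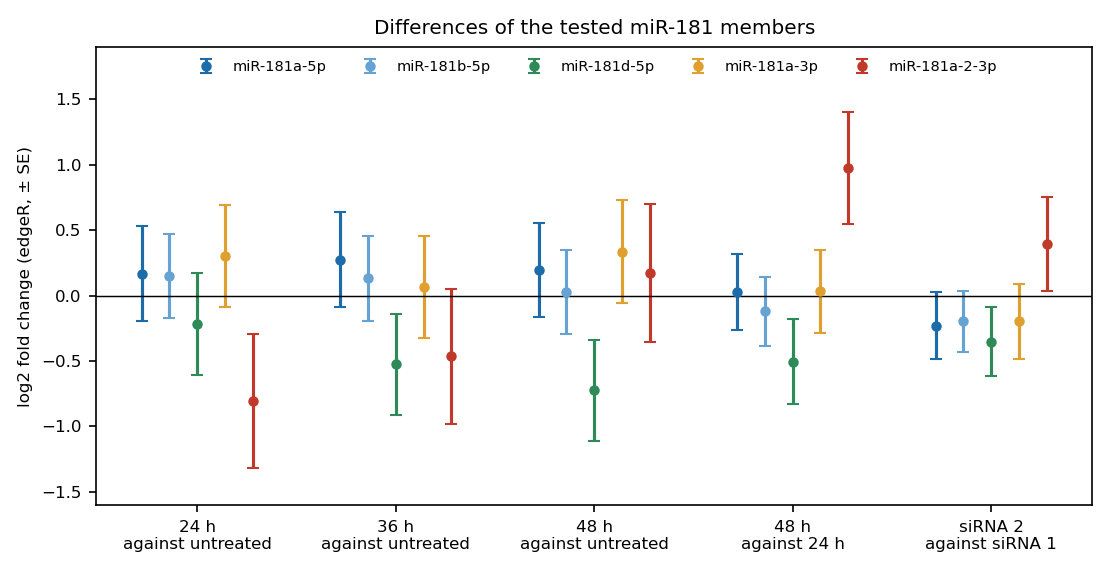
edgeR log2 fold change (points) with its standard error (bars) of the 5 tested members for 24, 36 and 48 h against untreated, 48 h against 24 h and siRNA 2 against siRNA 1. No value passed an adjusted p of 0.05, and the value farthest from 0 was 0.98 for miR-181a-2-3p at 48 h against 24 h.

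Across the 7 libraries, log2 CPM of the clustered guides miR-181a-5p and miR-181b-5p had a Pearson r of 0.90. With miR-181a-5p, r was 0.22 for the guide miR-181d-5p, 0.56 for the passenger miR-181a-3p and -0.34 for the passenger miR-181a-2-3p, and miR-181a-3p and miR-181a-2-3p had an r of 0.21 with each other. These are descriptions over 7 libraries that share the scale and the siRNA series. Outside the family, 270 miRNAs that averaged 50 reads or more were ranked by their r with miR-181a-5p, which had a median of 0.03 and a range of -0.65 to 0.62 between the 5th and 95th percentiles. The most alike were miR-30c-5p (r = 0.93), miR-26a-5p (0.86), miR-296-5p (0.86), miR-194-5p (0.81), a hepatocyte marker, and let-7e-3p (0.80). miR-30c-5p measured 6608 CPM in untreated cells, 6128, 6440 and 7545 CPM over 24, 36 and 48 h of siRNA 2, and 8865, 8000 and 7270 CPM over those of siRNA 1.

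Other miRNAs that liver cancer work links to progenitor-like cells (miR-17 to miR-92a cluster members, miR-130b-3p, miR-155-5p and let-7 miRNAs, 13 in all) were set beside the family. Of the 12 tested, edgeR called 0 over all times against untreated, with 4 above 0 and 8 below and a median log2 fold change of -0.58, against -0.05 for all tested miRNAs. miR-19b-3p, a miR-17 to miR-92a member, measured 176 CPM in untreated cells, 199.9, 30.5 and 29.2 CPM over 24, 36 and 48 h of siRNA 2, and 166, 177 and 39.7 CPM over those of siRNA 1. Its 36 h libraries also split, with siRNA 2 near 48 h and siRNA 1 near 24 h. Not all of the list fell: at 48 h against untreated, 4 of the 12 lay above 0 and 8 below. miR-92a-3p of the same cluster had 19650 CPM at 48 h of siRNA 2 and 18176 CPM at 48 h of siRNA 1, against 14967 CPM in untreated cells. let-7b-5p had 10330 and 9231 CPM in those 48 h libraries, against 6875 CPM in untreated cells. With all reads as the scale 12 of 12 lay below 0 and 8 were called lower, beside the 25.5% of all tested miRNAs called lower on that scale. That scale moved all tested miRNAs down: their median log2 fold change was -1.13, against -1.68 for the list. The share of all tested miRNAs below 0 was not counted.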

How the data were processed

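Per the file headers and values, the authors deposited unnormalized read counts of 2652 mature miRNAs for each library, plus 5 summary lines. For the aligner, counter, mismatch handling and genome build, the entry is: not given in the sources used here. The summary lines stayed out of library sizes and tests, with reads given to no feature at 73.5% to 86.6% of siRNA-treated libraries and 56.9% of the untreated one. Counts were tested with edgeR 4.0.16 in R 4.3.3 (quasi-likelihood F-test, TMM factors, mean count of at least 10, Benjamini-Hochberg adjustment, threshold 0.05). The 458 tested miRNAs held 99.9% of miRNA reads. Untreated and the 3 times formed 1 fit, and the spread of the pairs was taken to hold for the single untreated library. For siRNA 2 against siRNA 1, the fit had time as a factor, 6 libraries and 435 miRNAs. Standard errors are those whose squared ratio to the log2 fold change equals F. Correlations used log2 CPM with a prior count of 2. Alternatives were DESeq2 1.42.0, limma-voom (limma 3.58.1), other scales, filters and left-out libraries. The contrasts of 24 h and 36 h with untreated and some alternatives were added after the data were seen. The scripts were tested on simulated counts. Members and lists were chosen with earlier results of these data known, and named miRNAs are the members, other miR-181 arms, the seed match and the 5 miRNAs most correlated with miR-181a-5p. miR-19b-3p, miR-92a-3p, let-7b-5p, miR-885-5p, miR-148a-3p, miR-122-5p, miR-192-5p, miR-223-3p, miR-451a, miR-142-3p, miR-150-5p, miR-1-3p, miR-133a-3p and miR-206 were named as list examples after their values were seen. So were miR-143-3p, miR-126-3p, miR-145-5p, miR-199a-3p and miR-199a-5p. Sequences and coordinates are from RefSeq (GRCh38.p14), where all 10 miR-181 strands matched by name and sequence.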

Additional observations from a re-analysis of the deposited data

Results flagged for a closer look

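miR-181a-2-3p lay on opposite sides of the untreated library at 48 h and 24 h. The share of all tested miRNAs that do so was not counted, but 28.2% had both 48 h values above both 24 h values. The mean log2 difference of miR-181a-2-3p from untreated was 0.17 at 48 h and -0.81 at 24 h, a gap of 0.98. Both libraries of each time were on the same side. The gap itself was tested by the contrast of 48 h with 24 h and did not pass (edgeR adjusted p = 0.278).

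miR-181b-3p showed the reverse order, with a mean log2 difference from untreated of -1.33 at 48 h and 0.35 at 24 h, a gap of -1.67 that did not pass the same contrast (edgeR adjusted p = 0.272) and rests on 7 and 10 reads at 48 h. The ratio of miR-181b-5p to miR-181b-3p reads lay above untreated in both 48 h libraries (mean log2 difference 1.36) and below it in both 24 h libraries (-0.21). This gap of 1.57 rests on the same few reads, and the difference was not tested. By level, 33% of tested miRNAs, miR-181b-3p among them, had both 48 h values below both 24 h values.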

How the results depend on the processing

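Of 637 log2 fold changes of members and of miR-181b-3p and miR-181c-3p under an alternative, 579 kept their direction and their side of the threshold, 13 became calls and 45 turned their direction, none of which was a call. The counts of called miRNAs, 0 in each comparison, moved more. For all times against untreated they were 1 (DESeq2), 120 (all reads as scale), 12 (no count filter), 50 (without both 36 h libraries) and 0 to 65 with 1 library left out. For 48 h against untreated they were 12, 118, 39, 117 and 0 to 113 in the same order, and for 48 h against 24 h 23, 29, 51, 134 and 0 to 131. For the last, leaving out both 36 h libraries gave 160 with total counts and 59 with all reads as the scale. For 24 h against untreated they were 1, 2, 2, 13 and 0 to 14. For 36 h against untreated DESeq2 gave 7, all reads 49, no filter 10 and leaving out 1 library 0 to 91. In these 5 comparisons only the fits without a 36 h library made calls among those that left out 1 library: without siRNA 2 at 36 h 31, 113, 131, 14 and 14, and without siRNA 1 at 36 h 65, 94, 122, 5 and 91, in the order given. For siRNA 2 against siRNA 1 the count was 0 throughout.

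With all reads as the scale, log2 fold changes turned negative. Against untreated over all times, at 48 h, at 24 h and at 36 h these were -0.86, -0.92, -0.70 and -0.97 for miR-181a-5p, -0.97, -1.09, -0.74 and -1.10 for miR-181b-5p and -0.83, -0.78, -0.56 and -1.15 for miR-181a-3p. miR-181a-2-3p was at -0.95 at 48 h and miR-181b-3p at -0.55 at 24 h, and for 48 h against 24 h miR-181a-5p and miR-181a-3p were both at -0.22, also without the 36 h libraries. For siRNA 2 against siRNA 1 miR-181c-3p was at -0.056, and at -0.0052 with no filter. With total counts as the scale miR-181c-3p was at 0.11 at 48 h against untreated. For 48 h against 24 h on that scale miR-181b-5p was at 0.22 and miR-181c-3p at 0.21, with or without the 36 h libraries. With no filter miR-181b-5p was at -0.054 at 48 h and miR-181a-3p at -0.052 at 36 h against untreated.

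With 1 library left out, directions turned within these ranges. At 24 h against untreated the ranges were -0.13 to 0.40 (miR-181a-5p), -0.066 to 0.33 (miR-181b-5p) and -0.064 to 0.58 (miR-181a-3p). At 36 h they were -1.26 to 0.077 (miR-181a-2-3p) and -1.58 to 0.31 (miR-181b-3p). For 48 h against 24 h they were -0.17 to 0.32 (miR-181a-5p), -0.25 to 0.094 (miR-181b-5p), -0.21 to 0.40 (miR-181a-3p) and -0.31 to 0.015 (miR-181c-3p). For siRNA 2 against siRNA 1 they were -0.049 to 0.70 (miR-181a-2-3p), -0.32 to 0.043 (miR-181a-3p) and -0.18 to 0.25 (miR-181c-3p). The cause was not tested. At 48 h against untreated with all reads as the scale miR-181b-3p was at -2.41 (edgeR adjusted p = 0.0363), in a fit that called 25.8% of miRNAs, 25.1% lower. This value rests on 7 and 10 reads in the 48 h libraries.

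The siRNA number did not pair libraries: the log2 difference of siRNA 2 and siRNA 1 correlated across miRNAs at 0.10 between 24 h and 36 h, -0.26 between 24 h and 48 h and -0.15 between 36 h and 48 h. With the siRNA number as a replicate block the count of calls was 0 in each comparison it was run for, and without time as a block it was 0 for siRNA 2 against siRNA 1.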
